A study of Mus musculus with 6 samples.

Results

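The genes that encode the proteasome were followed in bone-marrow-derived dendritic cells (BMDC) of mice, the antigen-presenting cells grown from marrow in culture. 3 samples were labelled as treated with Ca(OH)2 nanoparticles for 12 h and 3 as treated with vehicle for the same time; strain, age, sex and the differentiation factors were not given in the labels. Calcium hydroxide is a sparingly soluble strong base, and the design asks which transcripts differ between cells with and without the particles. Members were chosen by name: every gene symbol that begins with Psma, Psmb, Psmc, Psmd or Psme and a digit, without the immunoproteasome subunits Psmb8, Psmb9 and Psmb10 and without pseudogenes. The rule matched 41 of the 23398 genes in the table, and 41 passed the filter of at least 1 FPKM (reads scaled for gene length and library depth) in at least 3 libraries. 1 of them, Psmc3ip, is a meiotic recombination factor named for its binding to a proteasome ATPase and is no subunit. It passed only through the vehicle libraries, where it stood at 1.16, 1.11 and 1.34 FPKM against 0.707, 0.366 and 0.714 FPKM with nanoparticles, and it is left out of all counts, which are over 40 genes.

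The proteasome is the protease that degrades proteins tagged with ubiquitin. Its barrel, the 20S core, consists of outer rings of alpha subunits, which gate the entry, and inner rings of beta subunits, of which Psmb5, Psmb6 and Psmb7 carry the active sites. A 19S cap docks on the barrel: its base holds the ring of ATPases (Psmc1 to Psmc6) that unfolds substrates, and its lid holds the deubiquitinase Psmd14. Other caps activate the core without ubiquitin: the PA28 alpha and beta subunits (Psme1 and Psme2), the nuclear PA28 gamma (Psme3) and PA200 (Psme4). In antigen-presenting cells, peptides cut by the proteasome are the main source of ligands for MHC class I molecules.

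The vehicle libraries held 17292113 to 18229391 reads recovered from the deposited values, and the nanoparticle libraries 17798766 to 21985353. Of the 40 genes, Psma8 rested on 21 to 35 reads per library and the others on 333 to 10160, a precision that covers counting error only. Nanoparticle library 1 stood apart from the other two: its log2 values over all tested genes correlated with theirs at 0.942 and 0.928, against 0.990 between nanoparticle libraries 2 and 3 and 0.993 to 0.994 among vehicle libraries. Results that depend on it are therefore given with and without it. The labels do not say that the libraries of a group came from separate animals or cultures, so p-values measure only the spread between these libraries. Markers of dendritic and myeloid cells were abundant, with vehicle means of 4116 FPKM for Cd74 and 448.8 FPKM for Itgax, while Flt3, a receptor of another dendritic cell culture system, was at 0 to 0.00775 FPKM in vehicle and 0.0294 to 0.0793 FPKM with nanoparticles. Of 10 such markers tested, Zbtb46 and Ciita fell and none rose (without nanoparticle library 1, Cd74 rose and 5 fell, Itgax, Ptprc and Csf2rb besides), and the list of 11 summed to 6851 to 7287 FPKM in vehicle and 4176 to 8393 FPKM with nanoparticles. The summed level of 7 macrophage markers was 690.2 to 703.6 FPKM in vehicle and 1301 to 1755 FPKM with nanoparticles, where 4 of the 7 rose (Adgre1, Cd68, Fcgr1 and Cd14) and Mrc1 fell (5 and 2 without nanoparticle library 1). The 8 neutrophil markers summed to 34.7 to 39.0 and 50.8 to 124.5 FPKM. Most of this was S100a8, which rose from between 33.4 and 36.0 FPKM to 50.1, 90.3 and 108.9 FPKM in nanoparticle libraries 1, 2 and 3. S100a9 was at 0.962 to 1.65 FPKM in vehicle and at 0.352, 13.2 and 10.2 FPKM with nanoparticles (adjusted p = 0.246, and 3.98e-05 without library 1), and Camp and Ngp were likewise highest in libraries 2 and 3 (1.83 and 1.99, and 4.30 and 3.23 FPKM). In nanoparticle library 1 Camp was at 0.242 FPKM, above 0 to 0.190 FPKM in vehicle, and Ngp at 0.0501 FPKM, below 0.246 to 0.901 FPKM. Ly6g, Elane and Mpo stood at no more than 0.307 FPKM in any library. Sums of T cell, B cell and stromal markers were at most 0.580, 0.394 and 2.01 FPKM in any library. Of the stromal markers Lepr fell from a mean of 1.79 to 0.321 FPKM (log2 change -1.08, limma adjusted p = 0.000567). Pdgfrb, which was not tested, was at 0 to 0.0553 FPKM in vehicle and 0.834 to 1.29 FPKM with nanoparticles. The mast cell and basophil list went from 3.91 to 6.12 FPKM in vehicle to 10.3 to 26.1 FPKM. In it Hdc rose, from 0.196 to 0.474 FPKM to 24.1, 6.69 and 6.76 FPKM, Gata2 fell (log2 change -0.76, adjusted p = 0.0190), and Kit lay below vehicle in every treated library (-0.31, adjusted p = 0.0854). The part of these shifts in the results below was not tested, and in bulk RNA fewer cells of a type and less RNA per cell cannot be told apart.

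Proteasome genes were higher in nanoparticle-treated cells as a rule and lower in none that passed the test. By limma on log2(FPKM + 1) with Benjamini-Hochberg adjustment over all 10682 genes tested, 22 of the 40 rose and 0 fell at an adjusted p under 0.05. Over all genes tested 17.0% rose and 16.2% fell, 33.2% in all. At an unadjusted p under 0.05 the members numbered 26, all higher, and limma-voom on the recovered reads gave 24 higher and 0 lower. The median log2 change of the 40 was 0.56, beside -0.0010 over all genes. At the deposited scaling every nanoparticle library lay above every vehicle library in 29 of the 40, a separation shown by 25.9% of all genes. In 1 (Psme3) every nanoparticle library lay below, as in 26.2% of all genes, while 52.1% of all genes separated in either direction.

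**Figure D1:**
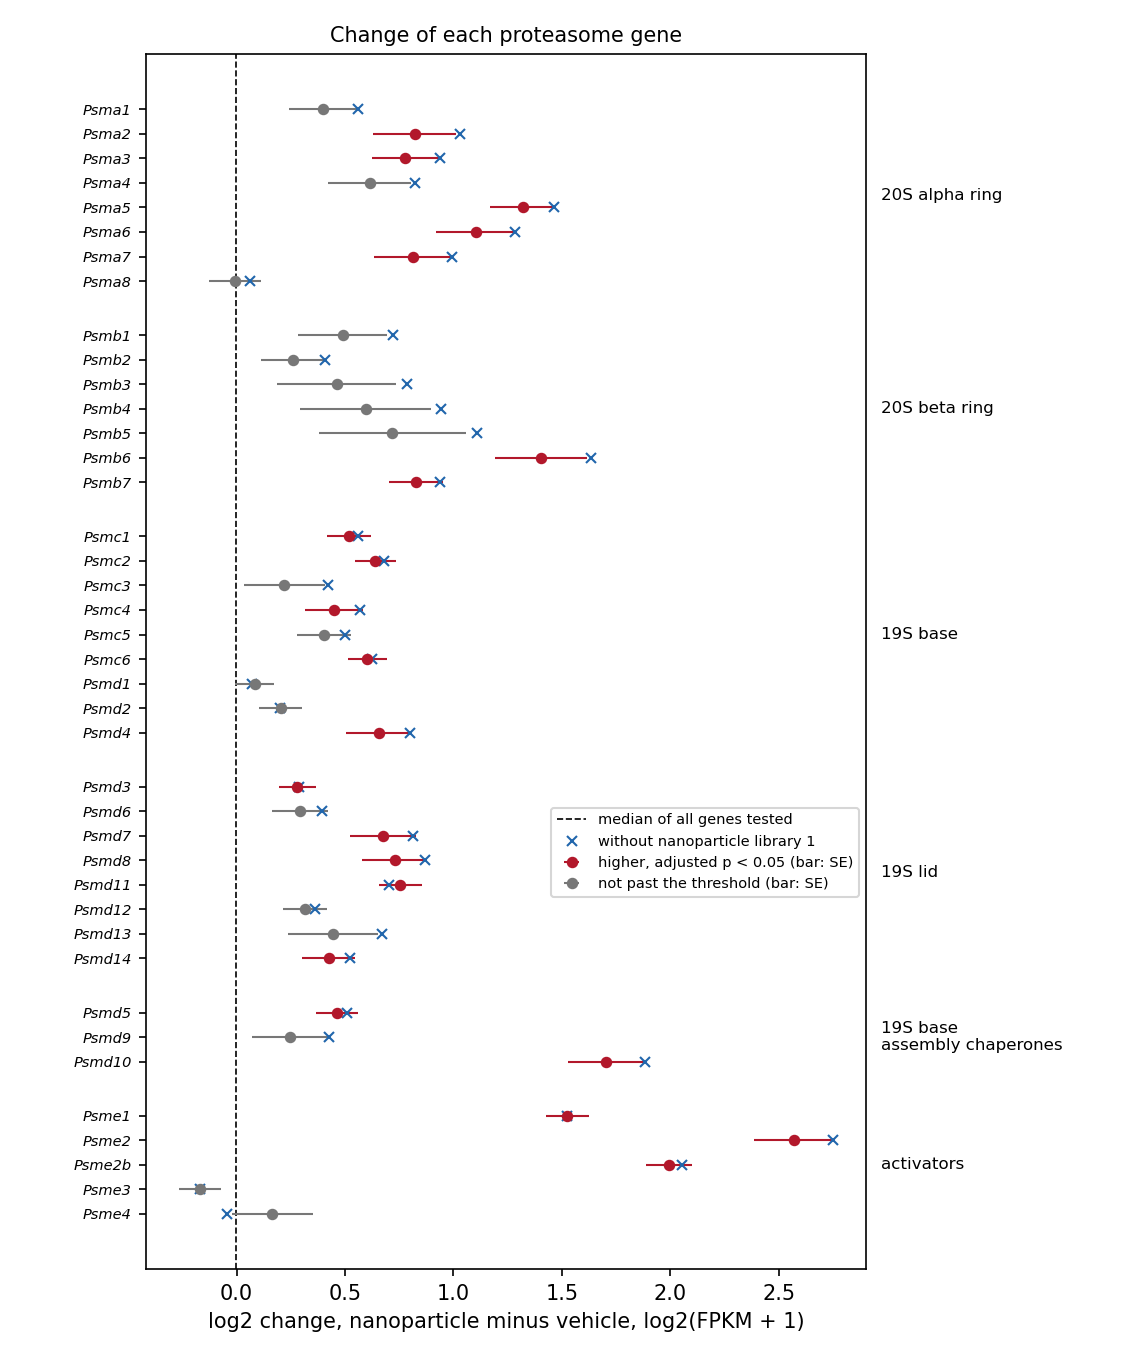
Log2 change of each of the 40 proteasome genes, nanoparticle minus vehicle, on the log2(FPKM + 1) scale with 3 libraries per group; circles with bars are the change and its standard error, crosses the change without nanoparticle library 1, and the dashed line the median of all genes tested (-0.0010). 38 of the 40 changes lie above 0 at the deposited scaling (29 when libraries are scaled by read totals and 24 when rescaled to equal sums), with Psme2 at 2.57 and Psme3 at -0.17 as the extremes.

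The size of the change differed by subcomplex. The median log2 change was 0.80 in the alpha ring (5 of 8 rose), 0.60 in the beta ring (2 of 7) and 0.45 in the 19S base (5 of 9). It was 0.44 in the lid (5 of 8), 0.46 in the base assembly chaperones (2 of 3) and 1.53 in the activators (3 of 5). The 5 activators spanned -0.17 to 2.57 and include Psme2b, a near copy of Psme2, with an uncertain division of reads between the pair. Without nanoparticle library 1 the alpha and beta rings were close, with medians of 0.97 (7 of 8) and 0.94 (7 of 7), and the other medians were 0.56, 0.60, 0.51 and 1.52 in the same order. Without nanoparticle library 1 the number of members past the threshold was 36 of 40, again with none lower, beside 34.3% of all genes higher and 30.5% lower (64.8% in either direction), and the 22 were among them. The 4 that did not pass were Psma8, Psmd1, Psme3 and Psme4. Leaving out vehicle library 1, 2 or 3 left 12, 13 and 11 members past the threshold, and leaving out nanoparticle library 2 or 3 left 15 and 19. 11 members passed whichever single library was left out: Psma5, Psma6, Psmb6, Psmb7, Psmc2, Psmc6, Psmd11, Psmd10, Psme1, Psme2 and Psme2b.

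Direction depended in part on how the libraries were scaled. The deposited FPKM are scaled so that most genes centre on no change; their sums were 321728 to 328384 per vehicle library and 400186 to 491404 per nanoparticle library. Scaled by read totals, the median of all genes moved to -0.28, that of the 40 to 0.22, and 12 members rose while Psme3 fell. Rescaled to equal sums (TPM), the medians were -0.38 and 0.09, and 10 rose while Psme3 and Psmd1 fell. Over all genes the split of higher to lower calls went from 1817 and 1733 to 1108 and 3610 by read totals, and to 881 and 4306 by TPM. Relative to the median of all genes, the median of the 40 was higher by 0.56, 0.50 and 0.48 under the deposited, read-total and TPM scalings. By number, 38, 39 and 39 of the 40 lay above that median. 8 members passed as higher in every alternative fit: Psma5, Psma6, Psmb6, Psmb7, Psmd10, Psme1, Psme2 and Psme2b.

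**Figure D2:**
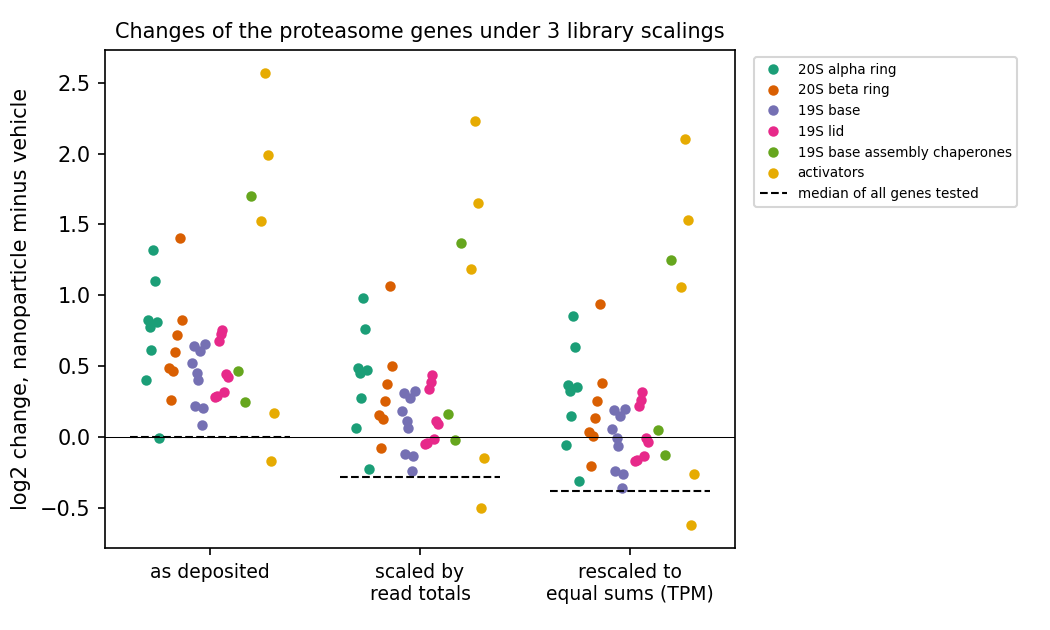
Log2 change (nanoparticle minus vehicle) of the 40 proteasome genes under the deposited scaling, scaling by recovered read totals and rescaling to equal sums, coloured by subcomplex; each point is 1 gene and the dashed lines are the medians of all genes tested (-0.0010, -0.28 and -0.38). The number of points above 0 goes from 38 to 29 and 24, while 38, 39 and 39 points lie above the dashed line.

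In the alpha ring, Psma1 to Psma7 all had higher means with nanoparticles, apart from Psma1 under TPM scaling. None of their groups overlapped at the deposited scaling. Psma5 (chr3:108256926-108279974, GRCm38), which rose most in the ring, stood at 43.8, 42.0 and 40.9 FPKM in vehicle and 87.3, 112.5 and 124.6 FPKM with nanoparticles. Each treated library lay above every vehicle library, whose mean was 42.2 ± 1.43 FPKM (SD, n = 3), a 2.56-fold difference of the means (log2 change 1.32, SE 0.154, limma adjusted p = 0.00135). For Psma6 the levels were 80.8, 85.8 and 81.8 FPKM against 139.7, 184.4 and 222.7 FPKM, 2.20-fold (log2 change 1.10, SE 0.185, adjusted p = 0.00534). It had the highest FPKM of the alpha subunits in both groups. Psma2, Psma3 and Psma7 also rose, with log2 changes of 0.82, 0.78 and 0.81. Psma1 and Psma4 did not pass (0.40 and 0.61, adjusted p = 0.101 and 0.0508) but did without nanoparticle library 1 (0.56 and 0.82, adjusted p = 0.000357 and 3.19e-05). Psma2 and Psma7 no longer passed when any vehicle library or nanoparticle library 2 was left out (adjusted p up to 0.0742 and 0.0639), nor did Psma3 without vehicle library 3 (0.0505). By read totals Psma2 and Psma7 did not pass (0.0663 and 0.0558), and by TPM Psma2 did not (0.0603). The testis-enriched alpha subunit Psma8 was the lowest in the ring and among all 40 genes, at 1.54, 2.09 and 1.75 FPKM in vehicle and 1.52, 1.86 and 1.96 FPKM with nanoparticles, and its groups overlapped.

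Within the treated group the alpha subunits followed one order at the deposited scaling: all 8 were lowest in library 1 and highest in library 3. Psma8 adds little to this, as it rested on 21, 26 and 32 reads in these libraries. The mean of Psma1 to Psma7 was 61.5, 83.8 and 94.7 FPKM in nanoparticle libraries 1, 2 and 3 and 41.0, 42.3 and 40.9 FPKM in the vehicle libraries. The same order held in all 7 beta subunits and in 29 of the 40 members (72.5%), against 30.6% of all genes tested. Library 1 was the lowest of the treated libraries in 33 of the 40 (82.5%) and in 46.3% of all genes. The library-to-library pattern was thus shared within the core while the vehicle libraries stayed close together.

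**Figure D3:**
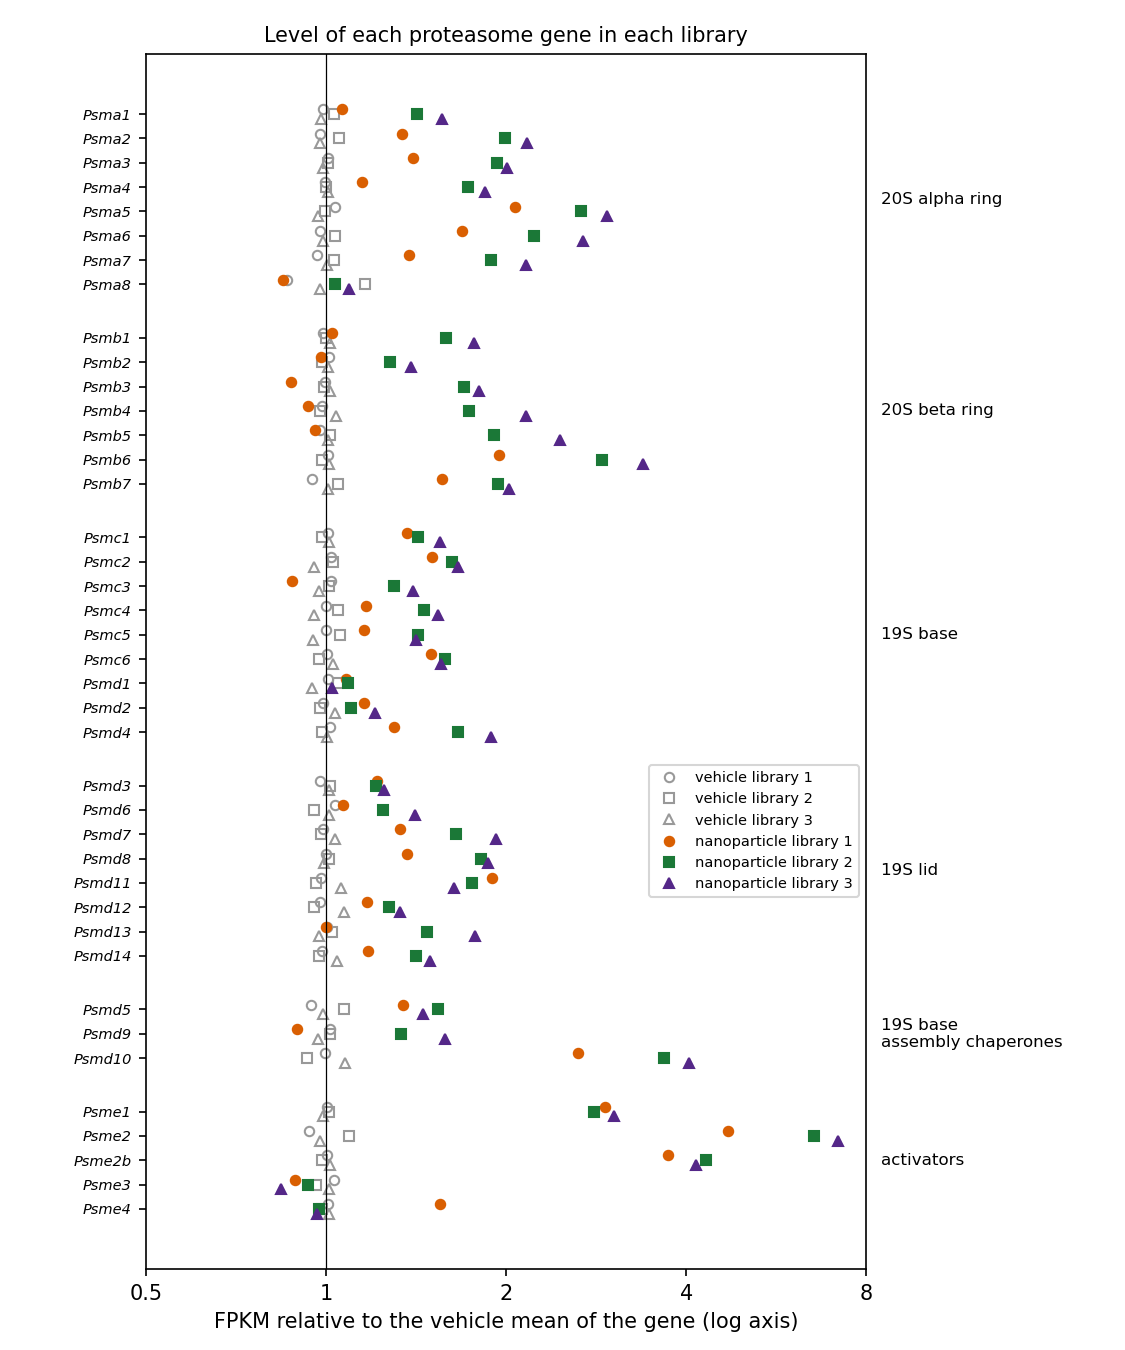
Level of each proteasome gene in each of the 6 libraries, as FPKM divided by the gene's vehicle mean (log axis); open grey symbols are the vehicle libraries and filled symbols the nanoparticle libraries. In all 7 beta subunits nanoparticle library 1 (orange circles) is the lowest treated library, and in Psmb2, Psmb3, Psmb4 and Psmb5 it lies below every vehicle library, at the deposited scaling.

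The beta ring split by that library. Psmb5, the chymotrypsin-like active subunit, had the highest FPKM of the 40 genes in vehicle. The order of genes by FPKM depends on the exon bases counted for each. Psmb5 measured 120.0, 124.7 and 123.5 FPKM in vehicle and 117.4, 234.1 and 302.3 FPKM with nanoparticles. Nanoparticle library 1 lay below every vehicle library and the other two far above, so the groups overlapped and the mean difference of 1.78-fold did not pass (log2 change 0.72, SE 0.338, limma adjusted p = 0.155). Without that library the log2 change was 1.11 (adjusted p = 0.000178). Psmb6, the caspase-like subunit, was at 71.4, 69.7 and 71.5 FPKM in vehicle and at 137.6, 205.0 and 240.0 FPKM with nanoparticles. It rose 2.74-fold, the most in the ring (log2 change 1.40, SE 0.213, adjusted p = 0.00370), with all treated libraries above all vehicle ones. Psmb7, the trypsin-like subunit with the lowest FPKM in the ring, went from 13.2, 14.6 and 14.1 FPKM to 21.8, 27.0 and 28.2 FPKM, a rise of 1.84-fold (log2 change 0.83, SE 0.126, adjusted p = 0.00373). Psmb7 shares 405 exon bases with Nek6 on the opposite strand, and the deposited values do not say whether strand was used in counting.

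None of the 4 beta subunits without an active site, Psmb1 to Psmb4, passed, and their median log2 change was 0.48. Psmb4 stood at 64.0, 63.5 and 67.5 FPKM in vehicle and 60.5, 112.8 and 140.5 FPKM with nanoparticles. Its pattern matched that of Psmb5, with library 1 below vehicle and libraries 2 and 3 above. Psmb2 (61.1, 79.9 and 86.5 FPKM with nanoparticles against 61.4 to 62.9 in vehicle) had the smallest change in the ring, 0.26, which turned to -0.08 by read totals and -0.20 by TPM. Without nanoparticle library 1 all 7 beta subunits passed, and the median of Psmb1 to Psmb4 was 0.75. At the deposited scaling nanoparticle libraries 2 and 3 both exceeded all vehicle libraries in 36 of the 40 members, against 40.1% of all genes. In 7 of those 36, or 17.5% of the 40 beside 14.1% of all genes, library 1 did not: Psmb2, Psmb3, Psmb4, Psmb5, Psmc3, Psmd13 and Psmd9.

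A promoter window was found in RefSeq tables (GRCm38.p6, 250 bases before to 50 after the start) for 33 of the 40 genes. The letters TGACNNNGC, the core of the antioxidant response element that NRF1 and NRF2 bind, were searched on both strands. They occurred in 6 of the 33 (18.2%: Psmb5, Psmb6, Psmc6, Psmd12, Psmd9 and Psme4) and in 14.0% of the 27025 genes with a window. The stretches around the match are shown for the catalytic subunits Psmb5 and Psmb6. Of these genes Psmb6 was higher in all 3 treated libraries and Psmb5 in 2. They run 5′ to 3′ along the gene at chr14:54618004-54618072 (minus strand) and chr11:70525318-70525359 (plus strand), with the match in capitals.
Psmb5: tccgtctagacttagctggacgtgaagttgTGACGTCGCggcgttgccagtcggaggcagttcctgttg
Psmb6: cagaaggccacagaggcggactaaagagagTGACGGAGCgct
With the first transcribed base as 1, the matches run from -47 to -39 in Psmb5 and from -9 to -1 in Psmb6. Those of Psmd9 (-31 to -23) and Psme4 (-7 to 2), not shown, lie nearer the start than that of Psmb5, and neither gene passed. Of the 19 members with a window that rose, 2 held the letters (Psmb6 and Psmc6), and of the 14 that did not pass, 4 did. A match describes the letters only and is not a measured binding site.

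In the 19S base the changes were smaller and more even. 4 of the 6 ATPases rose: Psmc1, Psmc2, Psmc4 and Psmc6, with log2 changes of 0.52, 0.64, 0.45 and 0.60. Psmc2 was at 15.6, 15.7 and 14.6 FPKM in vehicle and 23.0, 24.8 and 25.4 FPKM with nanoparticles, with no overlap and little spread among the treated libraries, a 1.60-fold difference (log2 change 0.64, SE 0.0940, limma adjusted p = 0.00326). It did not pass under TPM scaling (adjusted p = 0.131), nor did Psmc6 (0.253). Psmc1 and Psmc4 passed neither by read totals (0.170 and 0.490) nor by TPM (0.630 and 0.940), so by TPM no ATPase passed as higher. Psmd4, the ubiquitin receptor also known as Rpn10, measured 26.3, 25.5 and 25.9 FPKM in vehicle and 33.7, 43.0 and 48.8 FPKM with nanoparticles, a 1.61-fold rise (log2 change 0.66, SE 0.150, adjusted p = 0.0177). It missed the threshold when any vehicle library or nanoparticle library 2 was left out (adjusted p of 0.0624 to 0.0762), by read totals (0.104) and by TPM (0.142). Psmc1 was lost without any 1 vehicle library (up to 0.0633), and Psmc4 without any library except nanoparticle library 1 (up to 0.161).

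The largest scaffold subunits of the base stayed close to vehicle. Psmd1 was at 15.8, 16.3 and 14.8 FPKM in vehicle and 16.9, 17.0 and 16.0 FPKM with nanoparticles (log2 change 0.08, adjusted p = 0.536), and the groups overlapped. Psmd2, with the highest FPKM of the base in vehicle, was at 58.4, 57.9 and 61.3 against 68.4, 65.1 and 71.5 FPKM (log2 change 0.20, adjusted p = 0.170). Both values changed sign by read totals (-0.24 and -0.14) and by TPM (-0.36 and -0.26), where Psmd1 passed as lower (adjusted p = 0.0466). Psmc3 and Psmc5 did not pass either (0.22 and 0.40, adjusted p = 0.417 and 0.0508), but both did without nanoparticle library 1 (0.42 and 0.50), as did Psmd2 (0.20, adjusted p = 0.0267). Psmc2 was the lowest base transcript in vehicle, at 15.3 ± 0.593 FPKM (SD, n = 3), next to Psmd1 at 15.6 ± 0.790, a gap within their spread.

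Among the 8 lid genes 5 rose and all 8 had higher means, of which Psmd3, Psmd6 and Psmd12 were below 0 by read totals and Psmd13 and Psmd14 also by TPM. Psmd11, a lid subunit known as Rpn6, measured 9.70, 9.49 and 10.4 FPKM in vehicle and 18.7, 17.3 and 16.2 FPKM with nanoparticles. It was 1 of 2 members with their highest value in nanoparticle library 1, and rose 1.76-fold (log2 change 0.75, SE 0.0993, limma adjusted p = 0.00214; TPM 0.32, 0.107). Psmd8, with the highest FPKM of the lid, went from 87.9, 88.8 and 87.3 FPKM to 120.2, 159.6 and 163.9 FPKM, a 1.68-fold rise (log2 change 0.73, SE 0.150, adjusted p = 0.0118). This call was lost without any 1 vehicle library (adjusted p of 0.0559 to 0.0602) and under the other scalings (0.0622 by read totals, 0.0695 by TPM). Psmd7, the partner of the deubiquitinase, and the deubiquitinase Psmd14 rose by log2 changes of 0.68 and 0.42, and Psmd3 by 0.28. Psmd3 lay just inside the threshold (adjusted p = 0.0499) and was lost, like Psmd14, without any library except nanoparticle library 1 (up to 0.191 and 0.146), and Psmd7 was lost without any vehicle library or nanoparticle library 2 (up to 0.0734). Psmd7, Psmd14 and Psmd3 passed neither by read totals (0.0933, 0.550 and 0.679) nor by TPM (0.125, 0.772 and 0.219). Psmd6, Psmd12 and Psmd13 had log2 changes of 0.29, 0.32 and 0.45 and passed without nanoparticle library 1 (0.39, 0.36 and 0.67).

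Because a ratio of genes within a library does not depend on its scaling, the caps were set against the core. The mean FPKM of Psmc1 to Psmc6 divided by that of Psma1 to Psma7 was 0.926, 0.909 and 0.901 in vehicle and 0.738, 0.645 and 0.593 with nanoparticles. The lid mean over the same alpha mean was 0.772, 0.744 and 0.788 in vehicle and 0.653, 0.591 and 0.560 with nanoparticles. The alpha mean thus gained on both cap means in every treated library. In means of FPKM the genes of high FPKM, Psma6 above all, weigh most, and not every alpha gene gained on every cap gene. In nanoparticle library 1 Psma1 stood at 38.0 FPKM, against 35.4, 37.0 and 35.1 FPKM in vehicle. Psmc2 stood there at 23.0 FPKM, against 15.6, 15.7 and 14.6 FPKM. No library of one group overlapped the other in either ratio, and with 3 libraries against 3 the smallest two-sided p that an exact permutation test allows is 0.1.

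Of the 3 chaperones that assemble the base, Psmd10 (gankyrin) showed the third-largest change of all 40 members, and the largest outside the activators. Its levels were 15.0, 14.0 and 16.2 FPKM in vehicle and 39.7, 55.3 and 60.9 FPKM with nanoparticles. All treated libraries lay far above the vehicle mean of 15.0 ± 1.12 FPKM (SD, n = 3), 3.45-fold in the mean (log2 change 1.70, SE 0.175, limma adjusted p = 0.000858). In rank it went from 34 of 40 in vehicle to 18 of 40. Divided by the mean of the ATPases it helps to assemble, Psmd10 was at 0.394, 0.363 and 0.440 in vehicle and at 0.876, 1.02 and 1.08 with nanoparticles. Psmd5, another base chaperone, rose less, from 5.57, 6.33 and 5.86 FPKM to 7.96, 9.09 and 8.58 FPKM, 1.44-fold (log2 change 0.46, SE 0.0979, adjusted p = 0.0129). Its call was lost without vehicle library 1 or 3 (adjusted p = 0.0723 and 0.0696), by read totals (0.228) and by TPM (0.705). The third, Psmd9, had the lowest FPKM of the 3 (3.19, 3.19 and 3.05 FPKM against 2.81, 4.19 and 4.97 FPKM) and passed only without nanoparticle library 1 (log2 change 0.24 with it, adjusted p = 0.329, and 0.43 without it, 0.00518). Of its exon bases 25.5% are shared with a noncoding RNA gene on the opposite strand.

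The 250 bases before the RefSeq start of Psmd10 are shown as the promoter of the member with the largest change outside the activators, at chrX:140956712-140956961 on the minus strand. Capitals mark each CCAAT box, the site of the factor NF-Y, on either strand (CCAAT or ATTGG).
Psmd10: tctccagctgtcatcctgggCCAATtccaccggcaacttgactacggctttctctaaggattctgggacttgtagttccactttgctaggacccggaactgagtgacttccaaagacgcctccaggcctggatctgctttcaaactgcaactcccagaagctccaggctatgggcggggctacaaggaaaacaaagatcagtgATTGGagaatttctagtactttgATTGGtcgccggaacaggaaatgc
Its 3 boxes begin at -230, -47 and -24. CCAAT occurred in 12 of the 33 member windows (36.4%), among them Psma1, Psma2, Psma3, Psma6 and Psma7 of the alpha ring, and in 41.1% of all genes with a window. It was found in 9 of the 19 members with a window that rose and in 3 of the 14 with a window that did not pass.

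The activators held the extremes of the 40. Psme1, PA28 alpha (chr14:55578123-55581529, GRCm38), was at 45.3, 45.6 and 44.6 FPKM in vehicle and 132.1, 126.8 and 137.1 FPKM with nanoparticles. The treated libraries, library 1 included, lay within a narrow range, and the rise was 2.92-fold (log2 change 1.53, SE 0.0981, limma adjusted p = 0.000173). Psme2, PA28 beta, went from 38.9, 45.4 and 40.6 FPKM to 195.4, 271.9 and 298.9 FPKM, 6.14-fold (log2 change 2.57, SE 0.184, adjusted p = 0.000248), and moved from rank 14 to the highest FPKM of the 40. Psme2b stood at 36.5, 35.7 and 36.8 FPKM in vehicle and 135.7, 157.0 and 150.8 FPKM with nanoparticles (log2 change 1.99, SE 0.107, adjusted p = 0.000107). Psme2b, annotated at chr11:48945354-48946190, is a near copy of Psme2, which lies at chr14:55587441-55591113. Over 794 aligned transcript bases the sequences are 99.4% identical, with 5 mismatches, so the division of reads between the pair is uncertain.

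Psme1 and Psme2 form mixed rings, and the FPKM assigned to them were near parity in vehicle but not after treatment. Psme2b, the near copy, was not added. It stood at 0.937, 0.788 and 0.907 of Psme2 in vehicle and 0.694, 0.578 and 0.504 with nanoparticles. If its reads belong in part to Psme2, the ratios of Psme1 to Psme2 lie lower in both groups and vehicle is not at parity. Psme1 divided by Psme2 was 1.16, 1.01 and 1.10 in vehicle and 0.676, 0.466 and 0.459 with nanoparticles. The sum of both over the alpha mean was 2.06, 2.15 and 2.08 in vehicle and 5.33, 4.76 and 4.60 with nanoparticles, so that PA28 transcripts gained on the core in every treated library. Nanoparticle library 1, lowest for the core, had the highest of these ratios.

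**Figure D4:**
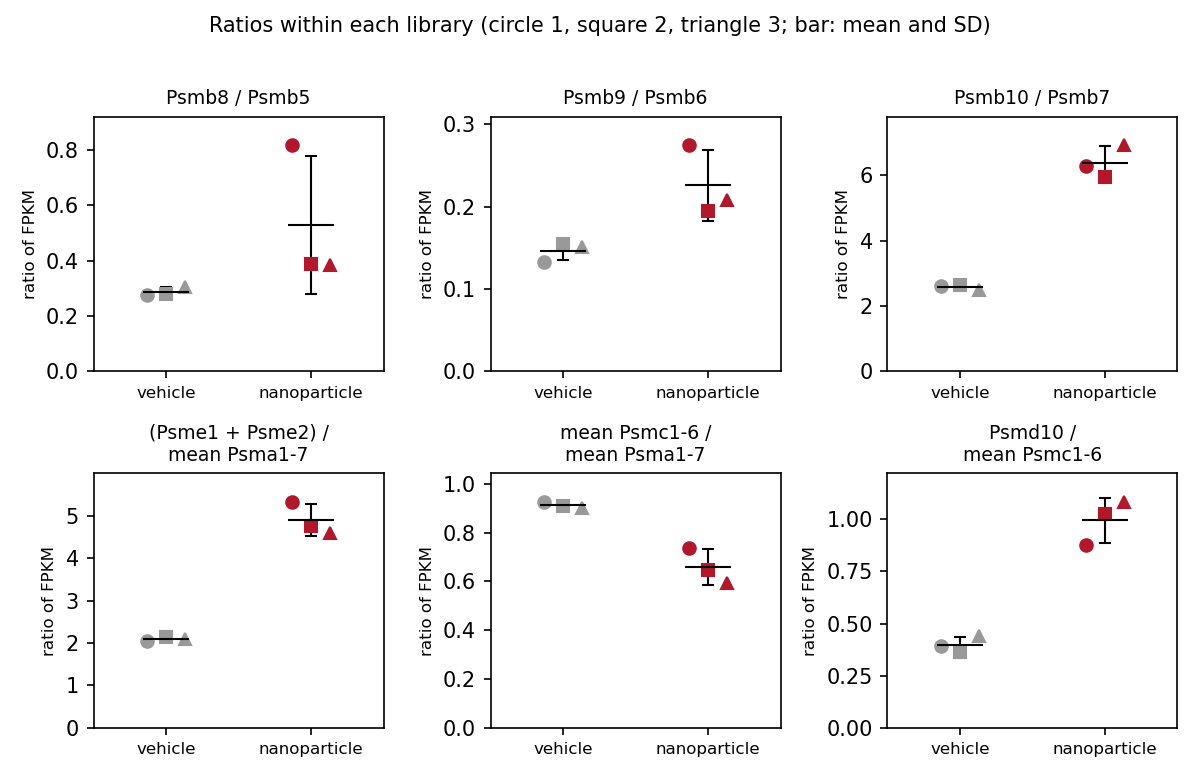
Ratios of FPKM within each library, which do not depend on the scaling between libraries, in 3 vehicle (grey) and 3 nanoparticle (red) libraries; horizontal bars are means and error bars the SD. In all 6 ratios the groups do not overlap, the ATPase to alpha ratio lower with nanoparticles (0.593 to 0.738 against 0.901 to 0.926) and the others higher.

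Psme1 is shown with the 3 other members whose windows hold the interferon-stimulated response element, searched as TTTC, NN and TTTC in a row. They were found in 4 of the 33 windows (12.1%) and in 3.99% of all genes with a window, counted on both strands. The stretches lie at chr14:55578473-55578515 (plus), chr11:97703241-97703310 (plus), chr3:95042655-95042724 (minus) and chr5:123228001-123228070 (plus), each read 5′ to 3′ along the gene with the match in capitals.
Psme1: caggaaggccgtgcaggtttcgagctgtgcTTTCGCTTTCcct
Psmb3: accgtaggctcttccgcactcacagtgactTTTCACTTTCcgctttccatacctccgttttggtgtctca
Psmd4: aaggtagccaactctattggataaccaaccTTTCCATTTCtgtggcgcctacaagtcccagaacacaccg
Psmd9: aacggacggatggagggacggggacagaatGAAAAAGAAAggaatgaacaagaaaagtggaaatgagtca
In Psme1 the match lies from 10 to 19, just after the start, and in Psmb3, Psmd4 and Psmd9 it begins at -163, -80 and -159. The log2 changes of these 4 genes ranged from 0.24 (Psmd9) to 1.53 (Psme1), and Psmb3 and Psmd9 did not pass. Psme2 was not among the members with a match. Of the 40 members 7 had no window to search, and of the 22 that rose 19 had one. Whether Psme2 was searched is not given here, so no absence of the letters is claimed for it. No match in the printed stretches overlaps a match of another motif searched.

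The remaining activators did not share the rise of PA28 alpha and beta. Psme3, the nuclear PA28 gamma, measured 33.2, 30.9 and 32.5 FPKM in vehicle and 28.5, 30.0 and 27.1 FPKM with nanoparticles. Every treated library was below every vehicle one, but the difference did not pass (log2 change -0.17, SE 0.0958, limma adjusted p = 0.226). By read totals and by TPM it passed as lower (-0.50 and -0.63, adjusted p = 0.00761 and 0.00631). Psme4 (PA200) was at 9.39, 9.16 and 9.42 FPKM in vehicle and 14.5, 9.05 and 8.98 FPKM with nanoparticles. Only nanoparticle library 1 was raised, the reverse of the core pattern, and the log2 change of 0.17 (SE 0.186, adjusted p = 0.540) was -0.04 without that library.

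In vehicle cells the FPKM of the 40 genes spanned 68.4-fold, from Psma8 at 1.79 ± 0.274 FPKM to Psmb5 at 122.7 ± 2.44 FPKM (SD, n = 3). Below Psmb5 came Psmd8 (88.0 ± 0.729), Psma6 (82.8 ± 2.62), Psmb6 (70.9 ± 1.02), Psmb4 (65.0 ± 2.18) and Psmb2 (62.4 ± 0.836), each apart from the next by more than their SDs except for Psmb4 and Psmb2, whose gap was below the sum of their SDs. Psmd2 (59.2 ± 1.87) and Psmc5 (58.8 ± 3.04) did not differ beyond their spread. Across the rings of the core, FPKM were uneven: beta genes ranged 8.80-fold, from Psmb7 to Psmb5, and Psma1 to Psma7 ranged 4.36-fold, from Psma3 to Psma6. Lid genes ranged 8.91-fold, from Psmd11 to Psmd8. These FPKM were divided by all exon bases of a gene. Psmb5, Psmb6 and Psmb7 have 899, 1872 and 3421 exon bases, but 899, 798 and 1160 in their longest coding transcripts. In vehicle library 1 they rested on 2149, 2664 and 901 reads. The part of exon length in the spans and the order of levels was not tested.

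The immunoproteasome subunits take the places of the constitutive catalytic ones: Psmb8 that of Psmb5, Psmb9 that of Psmb6 and Psmb10 that of Psmb7. All 3 rose, with log2 changes of 1.49, 1.93 and 2.15 (limma adjusted p = 0.000518, 0.000233 and 0.000252). Psmb8 divided by Psmb5 was 0.275, 0.278 and 0.306 in vehicle and 0.816, 0.387 and 0.383 with nanoparticles. The higher value of library 1 goes with Psmb5 at its vehicle level there, since Psmb8 was at 95.8 FPKM in that library and at 90.6 and 115.9 FPKM in the others. Psmb9 over Psmb6 was 0.133, 0.155 and 0.151 against 0.275, 0.195 and 0.208. Psmb10 over Psmb7 was 2.61, 2.63 and 2.50 against 6.30, 5.96 and 6.93, so for this pair the inducible gene had the higher FPKM in both groups. Psmb10 has 1705 exon bases and Psmb7 3421. In the other pairs the inducible gene is the longer, Psmb8 with 3381 against 899 for Psmb5 and Psmb9 with 3660 against 1872 for Psmb6. The part of length in the level of these ratios was not tested.

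The median log2 change of a list of 6 genes, the core assembly chaperones and Akirin2, was 0.17. Of these 1 rose, beside 17.0% of all genes: Pomp, the maturation factor of the beta ring, from 22.4, 24.3 and 23.1 FPKM to 34.0, 46.5 and 52.5 FPKM (log2 change 0.88, SE 0.172, limma adjusted p = 0.00966). The chaperones Psmg1 to Psmg4 had log2 changes of -0.11, 0.05, 0.19 and 0.51 and Akirin2 0.15, none past the threshold, and 4 of the 6 rose without nanoparticle library 1, beside 34.3% of all genes. Of 8 genes of proteins that associate with the 19S cap 3 rose (4 without nanoparticle library 1). They were Adrm1, the ubiquitin receptor Rpn13 (13.4, 13.9 and 13.9 against 20.3, 22.7 and 22.1 FPKM, log2 change 0.62, adjusted p = 0.00356), Txnl1 (0.67, adjusted p = 0.00318) and Ecpas (0.63, adjusted p = 0.0409). Adrm1 and Txnl1 did not pass by TPM (0.168 and 0.101). Ecpas did not by either scaling (0.238 and 0.524), nor without any 1 vehicle library or nanoparticle library 2 (up to 0.135). The deubiquitinases Usp14 and Uchl5 had log2 changes of -0.13 and -0.20 (adjusted p = 0.486 and 0.346).

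Of 13 genes of the transcription factors known to act on proteasome genes and of their processing, 5 rose and 1 fell, beside 17.0% and 16.2% of all genes (5 and 3 without nanoparticle library 1, beside 34.3% and 30.5%). Nfe2l1, which encodes NRF1, the factor that restores proteasome synthesis when activity is short, was at 35.1, 33.6 and 33.4 FPKM in vehicle and 60.0, 49.5 and 48.1 FPKM with nanoparticles. It was highest in library 1, unlike the core subunits (log2 change 0.60, SE 0.120, limma adjusted p = 0.0102). Nfe2l2, which encodes NRF2, was at 121.6, 111.2 and 113.8 against 144.3, 185.9 and 189.7 FPKM, lowest in library 1 of the treated libraries as the core was (0.57, SE 0.146, adjusted p = 0.0260). Neither passed by read totals (0.135 and 0.210) or TPM (0.498 and 0.416). Nfe2l1 was lost without vehicle library 2 or 3 (up to 0.0588), and Nfe2l2 without any library except nanoparticle library 1 (up to 0.115). The small Maf partners Maff, Mafg and Mafk rose by log2 changes of 1.79, 0.82 and 0.67. Mafg did not pass by TPM (adjusted p = 0.0564). Mafk did not by read totals (0.124) or TPM (0.358), nor without any 1 vehicle library or nanoparticle library 2 (up to 0.0769). Ddi2, the protease that releases NRF1, fell in every treated library, from 7.62, 7.80 and 7.58 FPKM to 3.49, 3.28 and 2.92 FPKM (log2 change -1.04, SE 0.0942, adjusted p = 0.000563), under all 3 scalings. It shares 18.3% of its exon bases with Rsc1a1 on the same strand. The NF-Y subunits Nfya, Nfyb and Nfyc had log2 changes of -0.30, 0.09 and -0.09, none past the threshold, but Nfya passed as lower without nanoparticle library 1 (-0.35, adjusted p = 0.00276), as did Sel1l (-0.52, adjusted p = 0.000616).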

How the data were processed

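RNA was sequenced from 3 vehicle and 3 nanoparticle samples, with groups taken from the sample labels. Libraries were made from 1 µg of total RNA with NEBNext Ultra II reagents, per the labels' protocols. The submitters' processing notes name STAR 2.5, HTSeq, edgeR 3.16.5 and DESeq2, with builds mm10 and hg19, in no stated role. The authors deposited 2 identical tables with no named unit. The deposited values were taken as FPKM, made by dividing gene counts by length and a library scale: with GENCODE M21 exon lengths 95.8% to 96.1% of values gave whole reads (within 0.01). The scale per library followed median-of-ratios size factors within 0.0192%. Such scaling centres most genes on no change.

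Genes at 1 FPKM or more in 3 libraries or more were tested with limma 3.58.1 (R 4.3.3; lmFit, eBayes with trend) on log2(FPKM + 1), a scale that understates changes of low genes, with Benjamini-Hochberg adjustment over all of them and a threshold of 0.05. The test was checked on simulated data with the spread of the vehicle libraries in both groups. That check does not cover the wider spread among the nanoparticle libraries. Log2 changes of TPM and of read-total scalings are alternatives, as are voom, other filters, a pseudocount of 0.1 and leaving out each library. Promoter windows are RefSeq's, and positions GENCODE M21's on GRCm38. Members, lists and motifs were chosen with earlier results of these data known, so no list was tested as a set. Given in full are the catalytic subunits, Psme1 to Psme4 and the 2 largest changes past the threshold per subcomplex. Of the related lists, up to 3 genes with the smallest adjusted p and Nfe2l1, Nfe2l2, Mafk and Psmb8 to Psmb10 are given. Other genes named for a pattern were chosen after their values were seen. Some genes of the related lists and 1 of the motifs searched are not reported here.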

Additional observations from a re-analysis of the deposited data

How the results depend on the processing

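Counts of members past the threshold were 22 as reported and 20 to 25 under voom, a pseudocount of 0.1, no filter, a filter of 5 FPKM (38 members tested) and eBayes without a trend. They were 12 by TPM and 13 by read totals, with member medians of 0.093 and 0.22. Leaving out 1 library gave 11 to 36 members, 2141 to 6923 genes of all (3550 as reported) and medians of 0.45 to 0.69. The lower counts of members came without a vehicle library and the highest without nanoparticle library 1.

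Signs turned for members that had not passed, and for Psmc4, Psmd14 and Psmd3, which had. By TPM the log2 changes were Psma1 -0.060, Psmb2 -0.20, Psmc3 -0.24, Psmc4 -0.0097, Psmc5 -0.062, Psmd1 -0.36, Psmd2 -0.26, Psmd12 -0.14, Psmd13 -0.0101, Psmd14 -0.033, Psmd3 -0.17, Psmd6 -0.17, Psmd9 -0.13 and Psme4 -0.26, and for the shuttle gene Zfand5 -0.0041. By read totals they were Psmb2 -0.078, Psmc3 -0.12, Psmd1 -0.24, Psmd2 -0.14, Psmd12 -0.016, Psmd3 -0.049, Psmd6 -0.043, Psmd9 -0.025 and Psme4 -0.15. Psma8, at -0.0064 as reported, was at 0.0023 with voom and ranged from -0.072 (without vehicle library 1) to 0.068 (without vehicle library 2) when 1 library was left out, and was above 0 without nanoparticle library 1 too. Psme4 ranged from -0.043 (without nanoparticle library 1) to 0.27 (without nanoparticle library 3). These scalings move the median of all genes to -0.38 by TPM and -0.28 by read totals.

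No label pairs the libraries that carry the same number. The correlations of their deviations from the group means were 0.065, 0.113 and -0.058. Among the nanoparticle libraries, the best partner of vehicle libraries 1 and 2 carried the same number, and that of vehicle library 3 carried another. With the replicate block, 18 members and 2785 genes passed, the member median stayed 0.56, and Psmc1, Psmc4, Psmd14 and Psmd3 were lost, as were Ecpas, Nfe2l2 and Zfand5 of the related lists. No other member call was lost under the block.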

Other observations

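Genes that supply and deliver ubiquitin were also measured. Ubb, a polyubiquitin gene, was at 292.0, 322.8 and 293.8 FPKM in vehicle and 599.8, 616.1 and 645.0 FPKM with nanoparticles, all treated libraries close together (log2 change 1.03, SE 0.126, limma adjusted p = 0.00161). Rps27a, which encodes ubiquitin joined to a ribosomal protein, had a log2 change of -0.38 and did not pass, and it differed within vehicle (142.7, 70.3 and 66.7 FPKM).

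Of 9 shuttle and receptor genes 3 rose, beside 17.0% of all genes. Sqstm1, which encodes p62, the receptor that hands ubiquitinated cargo to autophagy, had the largest change of the 9: 89.8, 90.6 and 87.0 FPKM in vehicle and 716.3, 497.1 and 468.8 FPKM with nanoparticles (log2 change 2.61, SE 0.186, adjusted p = 0.000248). It was highest in library 1, where most core subunits were lowest. Zfand2b (0.81, adjusted p = 0.0141) was lost by TPM (0.0586) and without vehicle library 1 or 3 (up to 0.0635). Zfand5 (0.45, adjusted p = 0.0110) was lost by read totals (0.328) and TPM (0.977), and without any 1 vehicle library (up to 0.0684). Rad23b, Ubqln1, Ubqln2, Ubqln4 and Zfand2a did not pass. Zfand2a, a stress-induced gene, was at 37.2 FPKM in nanoparticle library 1 and at 20.4 and 18.6 FPKM in libraries 2 and 3, on either side of the vehicle range of 24.1 to 25.9 FPKM, and it passed as lower without library 1 (log2 change -0.35, adjusted p = 0.00357).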
